A study of Rattus norvegicus with 4 samples.

Results

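The CC chemokines that macrophages make were followed in rat spleen cells 24 h after an injection of liposomes, small vesicles of lipid, or of saline. The members were 9 genes, Ccl2, Ccl3, Ccl4, Ccl6, Ccl7, Ccl9, Ccl17, Ccl22 and Ccl24, taken by the gene name that the array files give. They had 10 probes in 28 spots, of 30367 probes and 42877 spots other than controls, and all 9 were among the 12858 genes tested. The liposome group and the saline group each had 2 one-colour Agilent arrays, and both groups were male WKAH rats, 8 to 12 weeks old. In both groups, beads carrying the antibody OX-6 took out the cells bearing MHC class II, and the antibody OX-42 then retained the cells bearing CD11b/c, an integrin of myeloid cells. The sources used here state neither the composition and dose of the liposomes nor whether animals were pooled. Arrays are called by the number 1 or 2 that follows the letters exp in their titles, whose meaning the labels do not state. Nothing in the labels places the arrays on different rats, so the p-values here reflect the spread among these 4 samples alone, which may be technical. With 2 arrays per group, their number limits the precision.

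CC chemokines are small secreted proteins, named for a pair of neighbouring cysteines, that draw leukocytes along a gradient by binding G protein-coupled receptors named Ccr. Inflammatory members such as Ccl2 and Ccl7 act on Ccr2 of monocytes, Ccl3 and Ccl4 attract monocytes and lymphocytes, and in the mouse Ccl6 and Ccl9 act on Ccr1. Ccl17 and Ccl22 act on Ccr4, best known from T cells, and Ccl24 acts on Ccr3, best known from eosinophils. In the spleen these proteins help to place monocytes, T cells and granulocytes around the macrophages and dendritic cells that release them.

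Values are log2 scaled intensities: the log2 of the processed spot intensity minus the 75th percentile of the same array, so that 0 is the level of that percentile. A level says nothing against the level of another probe, since probes differ in brightness, and single levels are compared only within a gene. Summed levels of marker genes, given below, follow the brightest probes most and do not measure the share of a cell type. On each array 61.3% to 66.3% of spots were well above background, as the scanner software calls it. The median intensity was 188 and 182 on the liposome arrays and 171 and 175 on the saline arrays. Of the quality metrics in the scanner files, 2 were out of range on saline 1, 1 on liposome 2, and 0 on liposome 1 and saline 2. Across the 12858 genes, log2 values correlated at 0.993 between the liposome arrays, at 0.989 between the saline arrays and at 0.971 to 0.975 across the groups, where genes are no independent replicates. All 3 genes of the CD11b/c antigen were well above background on all 4 arrays and none passed the test. Of 13 measured macrophage marker genes 1 rose and 6 fell, and Cd68, a lysosomal protein of macrophages, and Csf1r, the receptor of the macrophage growth factor, were well above background on all 4 arrays. Marco, a scavenger receptor of marginal zone macrophages, was not well above background on any array. In such a mixed fraction, fewer cells of a type and less RNA per cell cannot be told apart.

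All 9 chemokine genes were well above background on all 4 arrays, with none saturated, so each has a measured fold change. Ccl9 rose on the liposome arrays, none of the 9 fell, and 8 did not pass the test (limma across all genes, Benjamini-Hochberg adjusted p under 0.05). That is 1 of 9, where 8.89% of all genes tested were called (4.83% higher and 4.06% lower). The liposome and saline arrays did not overlap for 4 of the 9, higher for Ccl7, Ccl9 and Ccl22 and lower for Ccl17, where 65.5% of all genes did not overlap (30.4% higher and 35.1% lower). The median log2 fold change, liposome minus saline, was -0.09 over the 9 genes and -0.04 over all genes tested.

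**Figure D1:**
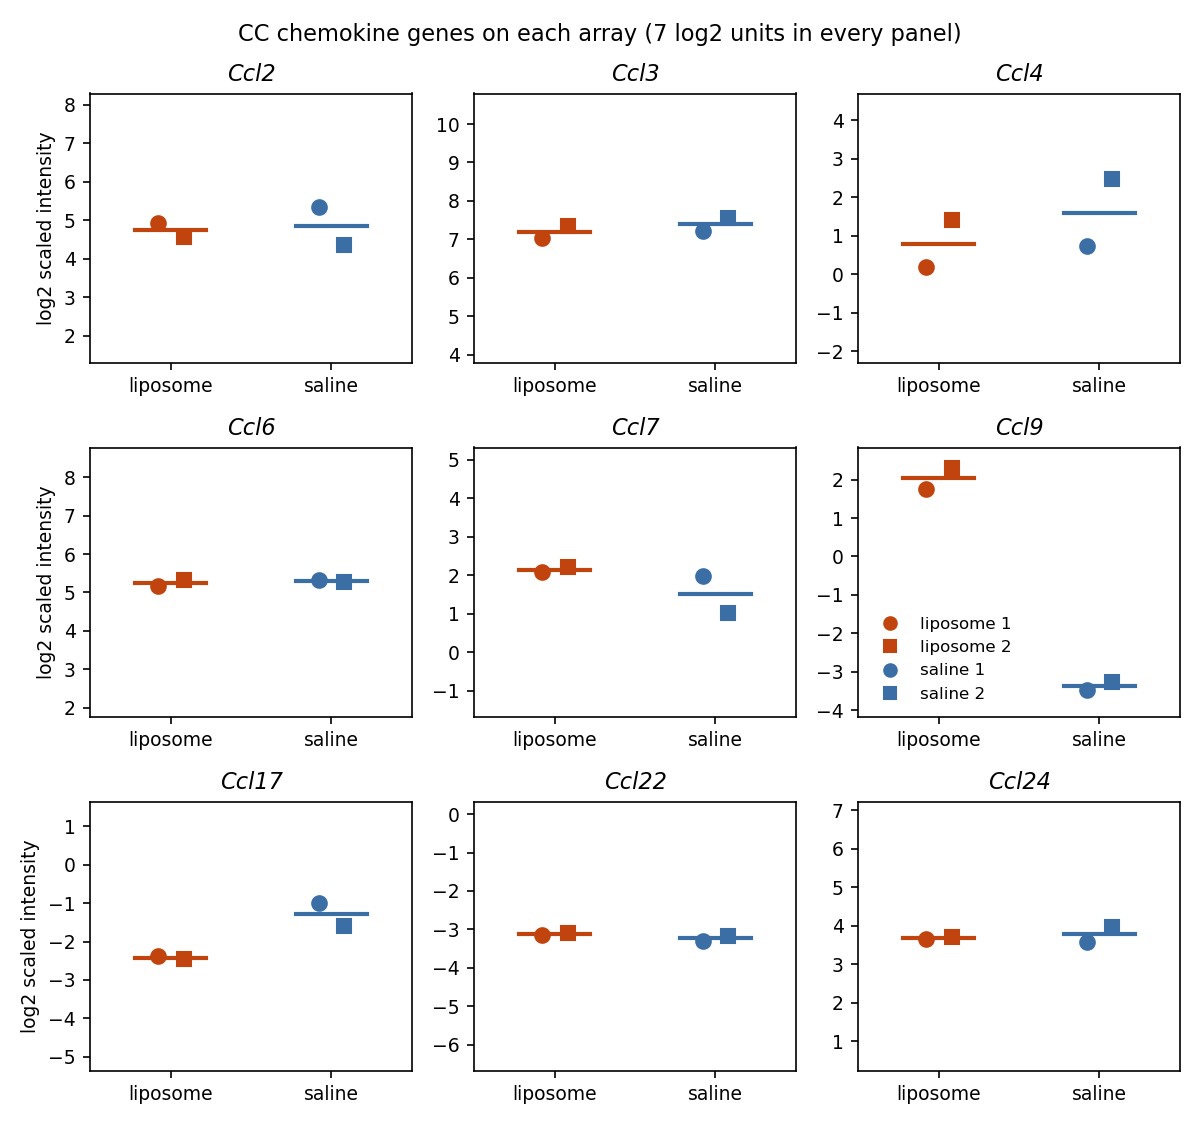
Log2 scaled intensity of the 9 CC chemokine genes, with the 2 liposome arrays on the left and the 2 saline arrays on the right of each panel. Points are arrays (circles for number 1, squares for number 2), lines are group means, and each panel spans 7 log2 units. Ccl9 lies at 1.76 and 2.31 on the liposome arrays and at -3.47 and -3.25 on the saline arrays, while the groups overlap for Ccl2, Ccl3, Ccl4, Ccl6 and Ccl24.

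**Figure D2:**
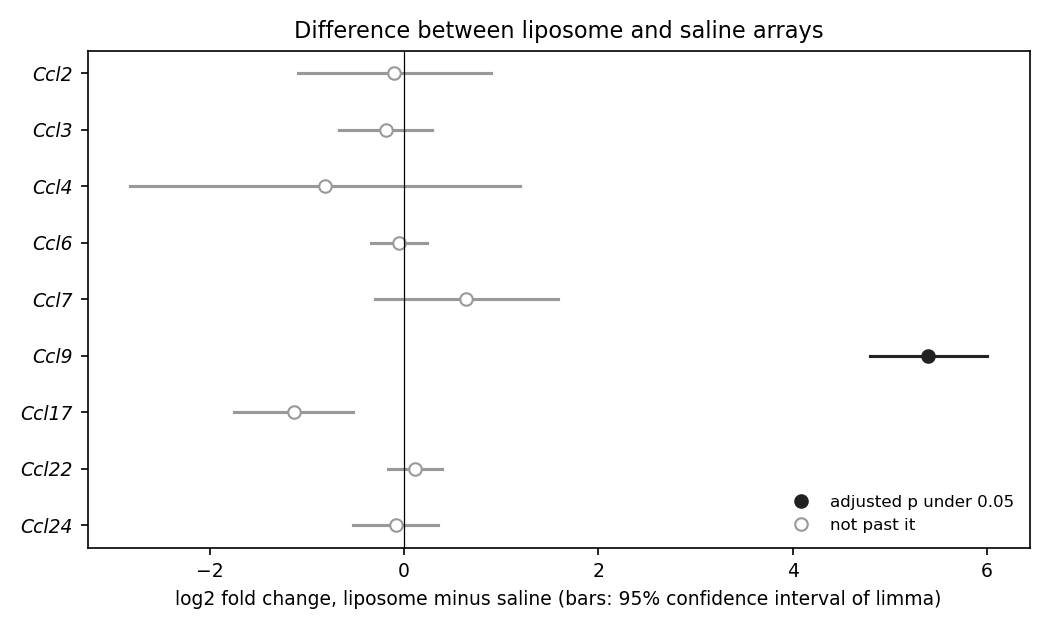
Log2 fold change of each CC chemokine gene, liposome minus saline, with the 95% confidence interval of limma (n = 2 arrays per group). Ccl9 at 5.40 is the filled point past the adjusted p threshold, and the interval of Ccl4, from -2.82 to 1.20, is the widest of the 9.

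By position, 6 of the 9 genes lie on chromosome 10, in pairs of neighbouring probes. On the rat assembly rn4, as the array files give it, the probe of Ccl2 lies at chr10:70257919-70257978 and that of Ccl7 next to it at chr10:70268674-70268733. The probe of Ccl9 lies at chr10:71645984-71646043, 14.2 kb before the first of the Ccl6 probes at chr10:71660234-71660293 and chr10:71660623-71660682. The Ccl3 probe at chr10:71744611-71744670 follows 83.9 kb after Ccl6, and the Ccl4 probe at chr10:71760265-71760324 a further 15.6 kb on. Ccl17 at chr19:10641376-10641435 and Ccl22 at chr19:10697623-10697682 lie 56.2 kb apart, and Ccl24 lies alone at chr12:22259230-22259289. Exon, intron or UTR is not stated, as no gene annotation on rn4 was used. Of the neighbours Ccl9 and Ccl6 the first rose and the other did not pass the test. That difference between genes was not tested.

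Ccl9, which in the mouse draws monocytes and osteoclast precursors through Ccr1, was the member that passed the test. Its processed intensity was 3696 and 5200.5 on the liposome arrays, against 86.5 and 104 on the saline arrays. On the log2 scale these were 1.76 and 2.31 on liposome 1 and liposome 2, and -3.47 and -3.25 on saline 1 and saline 2. Both liposome arrays were high and both saline arrays low, with 5.01 log2 units between the nearest arrays of the groups. On the saline arrays the probe was still called well above background, but it lay only 1.25 and 1.69 log2 units above the dimmest probe so called, against 7.16 and 6.90 on the liposome arrays. Ccl9 was 42.1-fold higher (log2 fold change 5.40 ± 0.22 SE, 95% interval 4.79 to 5.998, limma adjusted p = 0.00752). With normexp background correction, which adds 50 to each signal, the log2 fold change was 4.53. The call was lost when liposome 1 or liposome 2 was left out (log2 5.67 and 5.12, adjusted p = 0.0558 and 0.0657), and without the filter on dim probes (adjusted p = 0.1435). In none of these 3 settings was any gene called, and a lone liposome array is taken to vary like those of saline.

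Ccl6 lies next to Ccl9, resembles it in sequence, and in the mouse acts on the same receptor, but its values did not separate the groups. Its brighter probe was at 5.17 and 5.32 on the liposome arrays, against 5.32 and 5.27 on the saline arrays. The groups overlapped, and the log2 fold change was -0.05 ± 0.11 SE (95% interval -0.34 to 0.23, limma adjusted p = 0.752). Its other probe read 4.41 and 4.56 on the liposome arrays, against 4.56 and 4.59 on the saline arrays, a log2 fold change of -0.09 ± 0.11 SE (limma adjusted p = 0.608 with all 14880 probes as features). Both probes thus placed the difference close to 0 and inside the spread between arrays.

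The probe ends are shown to give how far the probes of these neighbouring genes overlap in sequence. They are the last 30 of the 60 bases of the Ccl9 probe and of the brighter Ccl6 probe, 5′ to 3′ as the array files give them, on chromosome 10. Capitals mark the longest run that the probes share, 11 bases.
Ccl9 probe: taatatgcctgtgaGGACCCAGCTGatctt
Ccl6 probe: tccaactttgtggGGACCCAGCTGttcttc
Aligned, the probes had 42 identical bases of 52 (80.8%), the highest of the 45 pairs of member probes, though others came close. The probes of Ccl7 and Ccl17 had 32 of 40 (80%), and those of Ccl9 and Ccl24 had 29 of 37 (78.4%). The other Ccl6 probe had 66.7% with the Ccl9 probe and a longest shared run of 5 bases. The reading of the Ccl9 probe separated the groups and that of neither Ccl6 probe did.

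The start regions of Ccl9 and Ccl6 are shown because Ccl9 rose, Ccl6 did not pass the test, and the genes share much of their sequence. Each is the RefSeq window of 250 bases before the gene's start and 50 from it, on assembly GRCr8, minus strand, printed 5′ to 3′ along the gene. The Ccl9 window is chr10:68868828-68869127 and the Ccl6 window chr10:68883317-68883616. Capitals mark the matches to the kappaB decamer, the site of NF-kB proteins, in Ccl9, and in Ccl6 the stretch aligned with the second of them.
Ccl9: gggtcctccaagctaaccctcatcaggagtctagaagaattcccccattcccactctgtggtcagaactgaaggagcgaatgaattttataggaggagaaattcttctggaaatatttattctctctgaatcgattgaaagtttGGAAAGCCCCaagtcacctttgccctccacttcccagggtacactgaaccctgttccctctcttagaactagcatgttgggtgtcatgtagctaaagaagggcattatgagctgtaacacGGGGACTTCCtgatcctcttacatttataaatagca
Ccl6: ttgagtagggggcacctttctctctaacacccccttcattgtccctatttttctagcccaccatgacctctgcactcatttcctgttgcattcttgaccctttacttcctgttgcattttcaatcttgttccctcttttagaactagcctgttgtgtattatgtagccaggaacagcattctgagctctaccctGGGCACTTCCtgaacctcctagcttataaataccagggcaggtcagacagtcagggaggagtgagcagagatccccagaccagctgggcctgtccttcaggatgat
The Ccl9 window holds 2 matches, GGGGCTTTCC on the opposite strand beginning 106 bases before the start and GGGGACTTCC at bases 15 to 24 from the start. The aligned Ccl6 stretch, GGGCACTTCC, begins 56 bases before its start and differs by the substitution G4C, counted from 1 at the 5′ end of the decamer, so it is no match. The windows aligned over 200 bases, of which 144 were identical (72%), where the other pairs of member windows had 54.4% to 63.5%. The letters TATAAAT stand 40 bases after the annotated start in Ccl9 and 32 bases before it in Ccl6, so the windows are annotated at different places relative to the shared sequence. Of all 33469 RefSeq windows of this length 7.51% hold the kappaB decamer on either strand, 7.28% the STAT6 site (TTC, any 4 bases, GAA) and 7.33% the AP-1 site TGANTCA. Of the 6 members with a window, Ccl7 holds a kappaB match 59 bases and an AP-1 match 73 bases before its start, Ccl17 holds the STAT6 match TTCTTTGGAA 68 bases before its start, and Ccl22 and Ccl24 hold none of the 3. Ccl2, Ccl3 and Ccl4 were not matched to a window. A match is a description of letters, not a site shown to be used.

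The genes with the profile most like that of Ccl9 over the 4 arrays were Mmp14 (0.667), Plau (0.791), Spp1 (0.807), Mmp7 (0.902) and Mgll (0.953). In brackets is the Euclidean distance between centred log2 values. With 2 arrays per group and a group difference this large, the distance mostly follows the size of the rise. Mmp14 is a membrane-bound matrix protease, Plau the urokinase plasminogen activator, Spp1 the secreted protein osteopontin, Mmp7 a further matrix protease and Mgll a lipase of monoglycerides. Mmp14 was 49.2-fold higher on the liposome arrays, at 3.96 and 3.69, against -1.72 and -1.87 on the saline arrays (limma adjusted p = 0.00752). On both saline arrays the other 4 were not well above background, so their folds are bounds. On the processed intensity these were at least 21.1-fold for Plau, 15.4-fold for Spp1, 20.1-fold for Mmp7 and 11.3-fold for Mgll. With normexp their log2 fold changes were 3.16 for Plau, 2.78 for Spp1, 3.05 for Mmp7 and 2.36 for Mgll, and the order of their distances rests on saline values that were not well above background. Each bound sets the liposome mean against a saline mean in which the probe counts at its own value or, if that is higher, at the level of the dimmest probe still well above background on that array.

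The Ccr2 ligands Ccl2 and Ccl7 did not pass the test. Ccl2, the main attractant of monocytes, was at 4.91 and 4.57 on the liposome arrays, against 5.33 and 4.35 on the saline arrays. The liposome arrays lay between the saline arrays. Its log2 fold change was -0.10 ± 0.37 SE (95% interval -1.09 to 0.89, limma adjusted p = 0.869), and it was 0.39 without saline 1 and -0.59 without saline 2. Ccl2 is printed in 10 spots on each array, and the SD between the spots used was 0.04 on each liposome array and 0.06 and 0.05 on the saline arrays. The saline arrays themselves lay 0.98 apart.

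Ccl7, which attracts monocytes and shares the receptor of Ccl2, was at 2.08 and 2.21 on the liposome arrays, against 1.98 and 1.02 on the saline arrays. Its groups did not overlap, but liposome 1 and saline 1 were only 0.09 apart, and saline 2 alone was low. The difference, a log2 fold change of 0.64 ± 0.35 SE, did not pass (95% interval -0.30 to 1.58, limma adjusted p = 0.271). It was 0.16 without saline 2 and 1.12 without saline 1.

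Ccl12, which in the mouse also acts on Ccr2, is described beside them and was named, as were the other 3 measured CC chemokines, after its values were seen. It was at -1.53 and -1.16 on the liposome arrays, against -2.75 and -4.28 on the saline arrays. As for Ccl2 and Ccl7, saline 2 was its lowest array. Its log2 fold change of 2.17 ± 0.55 SE did not pass the threshold (limma adjusted p = 0.0817). Without saline 1 it was 2.93 and passed (adjusted p = 0.0376), and with normexp it was 1.51.

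Ccl3 and Ccl4, which activated macrophages and lymphocytes release, did not pass the test either. Ccl3 was at 7.05 and 7.35 on the liposome arrays, against 7.23 and 7.55 on the saline arrays. The groups overlapped, with number 2 the higher array in both. On average the log2 fold change was -0.19 ± 0.18 SE (95% interval -0.67 to 0.29, limma adjusted p = 0.497). Ccl3 also has 10 spots, and their SD was 0.11 and 0.09 on the liposome arrays and 0.39 and 0.12 on saline 1 and saline 2. On saline 1 single spots ran between 86552 and 189710 in intensity, a wider range than on the other arrays.

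Ccl4 was at 0.19 and 1.40 on the liposome arrays, against 0.72 and 2.49 on the saline arrays. Saline 2 was its highest array and liposome 1 its lowest, and the groups overlapped. The log2 fold change was -0.81 ± 0.74 SE (95% interval -2.82 to 1.20, limma adjusted p = 0.487), and it was 0.07 without saline 2 and -1.69 without saline 1. The array numbered 2 was above the array numbered 1 by 1.21 in the liposome group and by 1.77 in the saline group.

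The median natural killer and T cell markers were, like Ccl4, higher on the arrays numbered 2, though single genes such as Cd4 and Cd8b were not. Number 2 exceeded number 1 by a median of 1.67 in the liposome group and 1.65 in the saline group over 10 natural killer markers, and by 0.92 and 1.31 over 11 T cell markers. The summed linear level of the natural killer markers, in units of each array's 75th percentile, was 48.9 and 73.4 on the liposome arrays. On the saline arrays it was 66.1 and 130. The bright probe of Tbx21 gave much of this sum on liposome 1, liposome 2 and saline 1, and less of it on saline 2. It had a log2 fold change of -0.06 and varied little, from 5.23 on liposome 1 to 5.37 on saline 2. The higher sum on saline 2 came from other markers, such as Nkg7, at 4.91 there against 3.17 on saline 1. The summed level of the T cell markers was 18.4 and 33.6 on the liposome arrays and 18.2 and 41.6 on the saline arrays. None of the 10 natural killer genes passed the test, and all 10 were fitted lower on the liposome arrays, with a median log2 fold change of -1.35. Between same-numbered arrays, liposome minus saline, their median difference was -1.32 for number 1 and -1.32 for number 2. None of the 11 T cell genes passed, with a median of -0.12. Ccl5, a chemokine known from T cells and natural killer cells, was at 3.91 and 5.61 on the liposome arrays, against 5.49 and 7.12 on the saline arrays. Its log2 fold change was -1.54 ± 0.81 SE with limma adjusted p = 0.265, and between same-numbered arrays it was -1.57 and -1.51. The part of these lymphocyte genes in the Ccl4 values was not tested.

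**Figure D3:**
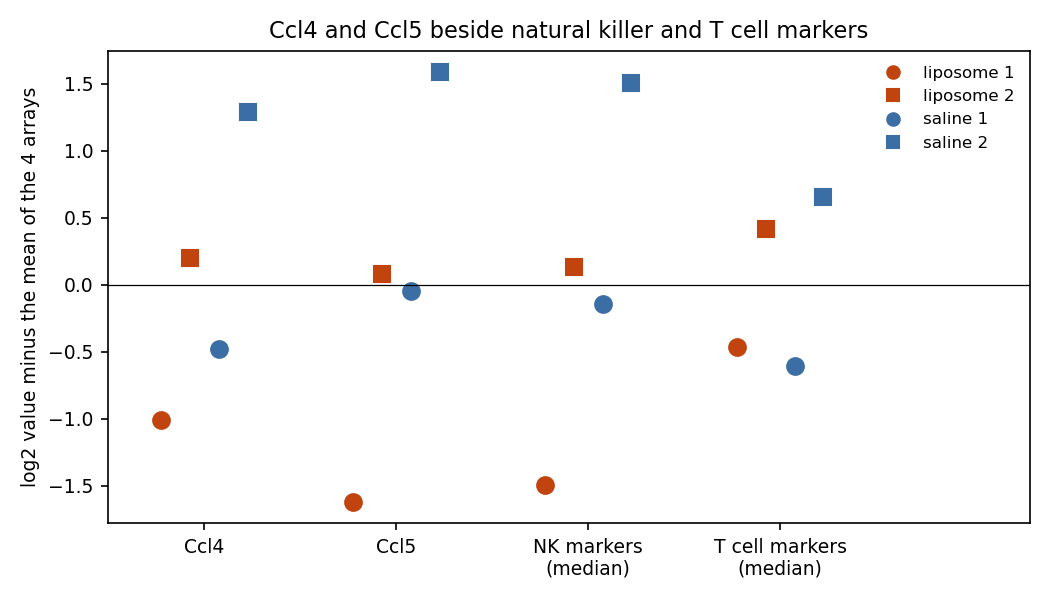
Log2 values of Ccl4, Ccl5, the median natural killer (NK) marker and the median T cell marker, each minus its mean over the 4 arrays, with the liposome arrays to the left of the saline arrays. In each column the square (number 2) lies above the circle (number 1) of its group, by 1.21 in the liposome group and 1.77 in the saline group for Ccl4.

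Ccl17 and Ccl22, the ligands of Ccr4, are released by dendritic cells and by macrophages exposed to IL-4, and neither passed the test. Ccl17 was at -2.39 and -2.47 on the liposome arrays, against -0.99 and -1.59 on the saline arrays. Both liposome arrays lay below both saline arrays, with a gap of 0.795. The log2 fold change was -1.13 ± 0.23 SE (95% interval -1.75 to -0.52, limma adjusted p = 0.0575), just short of the threshold. It passed with normexp background correction (log2 -0.99, adjusted p = 0.0388), with median scaling (log2 -1.05, adjusted p = 0.0459), among probes well above background on all 4 arrays (adjusted p = 0.0485) and without saline 2 (log2 -1.43, adjusted p = 0.0423).

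Of 8 measured dendritic cell markers 3 fell, none rose and all 8 were fitted lower, with a median log2 fold change of -0.88. Their summed linear level was 5.87 and 5.41 on the liposome arrays, against 9.79 and 10.04 on the saline arrays. Flt3, a growth factor receptor of dendritic cells and their precursors, was at -1.16 and -1.10 on the liposome arrays, against -0.25 and -0.04 on the saline arrays, while the defining markers Zbtb46 and Xcr1 were not well above background on any array. The beads removed cells bearing MHC class II, and the list of MHC class II genes also holds Cd74 and Ciita. It had a summed level of 317 on each liposome array, against 448 and 407 on the saline arrays, with Cd74 its brightest probe. Of 9 measured, 2 fell, RT1-Db1 and RT1-DOa. RT1-Bb did not pass (limma adjusted p = 0.0692), and RT1-Ba was not well above background on any array. Markers of other cell types were lower too: 7 of 11 neutrophil genes and 5 of 6 erythroid genes fell, and all 10 B cell genes were fitted lower with none past the test, at median log2 fold changes of -0.78, -1.39 and -0.65. The part of any of these cells in the Ccl17 values was not tested.

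Ccl22 was at -3.13 and -3.10 on the liposome arrays, against -3.29 and -3.17 on the saline arrays. The groups did not overlap, with a gap of 0.04, and every array lay 1.44 to 2.27 log2 units above the dimmest probe well above background. This gave a log2 fold change of 0.11 ± 0.10 SE (95% interval -0.16 to 0.39, limma adjusted p = 0.481).

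Ccl24, the Ccr3 ligand also called eotaxin-2, was at 3.66 and 3.72 on the liposome arrays, against 3.58 and 3.96 on the saline arrays. The liposome arrays lay between the saline arrays. Their means differed by a log2 fold change of -0.09 ± 0.16 SE (95% interval -0.52 to 0.35, limma adjusted p = 0.736).

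Among the receptors, 2 of 9 measured fell, none rose and 7 did not pass, with a median log2 fold change of -0.37 beside -0.04 over all genes. Ccr3, the receptor of Ccl24, was at -3.77 and -3.35 on the liposome arrays, against -1.24 and -1.501 on the saline arrays. It was 4.57-fold lower on the liposome arrays (log2 fold change -2.19 ± 0.19 SE, limma adjusted p = 0.0163). It lost the call with any 1 array left out (adjusted p = 0.0861 without liposome 1, 0.0737 without liposome 2, 0.0523 without saline 1 and 0.0519 without saline 2). Of 11 measured genes of eosinophils, basophils and mast cells Ccr3 alone fell, and their summed level was 17.9 and 28.7 on the liposome arrays and 20.4 and 34.0 on the saline arrays. Of the 11 genes 8 were fitted lower, with a median log2 fold change of -0.35, among them Hdc at -0.77, Ms4a2 at -0.71 and Fcer1a at -0.71. The eosinophil granule genes Epx and Prg2 had the highest log2 fold changes of the list, 0.29 ± 0.66 SE and 0.28 ± 0.65 SE. Neither passed (limma adjusted p = 0.786 and 0.795).

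Ccr2, the receptor of Ccl2 and Ccl7 on monocytes, was at -0.85 and -0.90 on the liposome arrays, against 0.74 and 0.11 on the saline arrays. It was 2.47-fold lower on the liposome arrays (log2 fold change -1.30 ± 0.24 SE, limma adjusted p = 0.0495). It missed the threshold narrowly with quantile normalization (0.0559) and with the probes of a gene averaged or fitted singly (0.0502 and 0.0507), and by more without liposome 1 (0.208), without liposome 2 (0.2065) and without the filter on dim probes (0.2696). Of 9 measured monocyte markers, Ccr2 among them, 4 fell and none rose. Their summed level was 176 and 205 on the liposome arrays and 216 and 241 on the saline arrays. Much of this sum came from the bright probe of Lyz2, which had a log2 fold change of 0.08. The part of monocytes in the Ccr2 values was not tested.

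The other receptors described here did not pass. Ccr1, bound by Ccl3 and in the mouse by Ccl6 and Ccl9, was at 0.03 and 0.09 on the liposome arrays, against 0.22 and -0.04 on the saline arrays. Its log2 fold change was -0.03 ± 0.13 SE (95% interval -0.38 to 0.32, limma adjusted p = 0.883), beside the rise of Ccl9. The log2 fold changes were -0.17 for Ccr7, the receptor that guides cells to T cell zones, -0.24 for the atypical receptor Ccrl2, -0.37 for Ccr9 of gut-homing lymphocytes, -0.65 for Ccr6 and -0.84 for Ccr10. Ccr6 passed with normexp (log2 -0.63, adjusted p = 0.0489). Ccr4, the receptor of Ccl17 and Ccl22, was well above background on 0 of 2 liposome arrays and 1 of 2 saline arrays, and Ccr8 and Ackr2 on none, so they have no fold change.

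**Figure D4:**
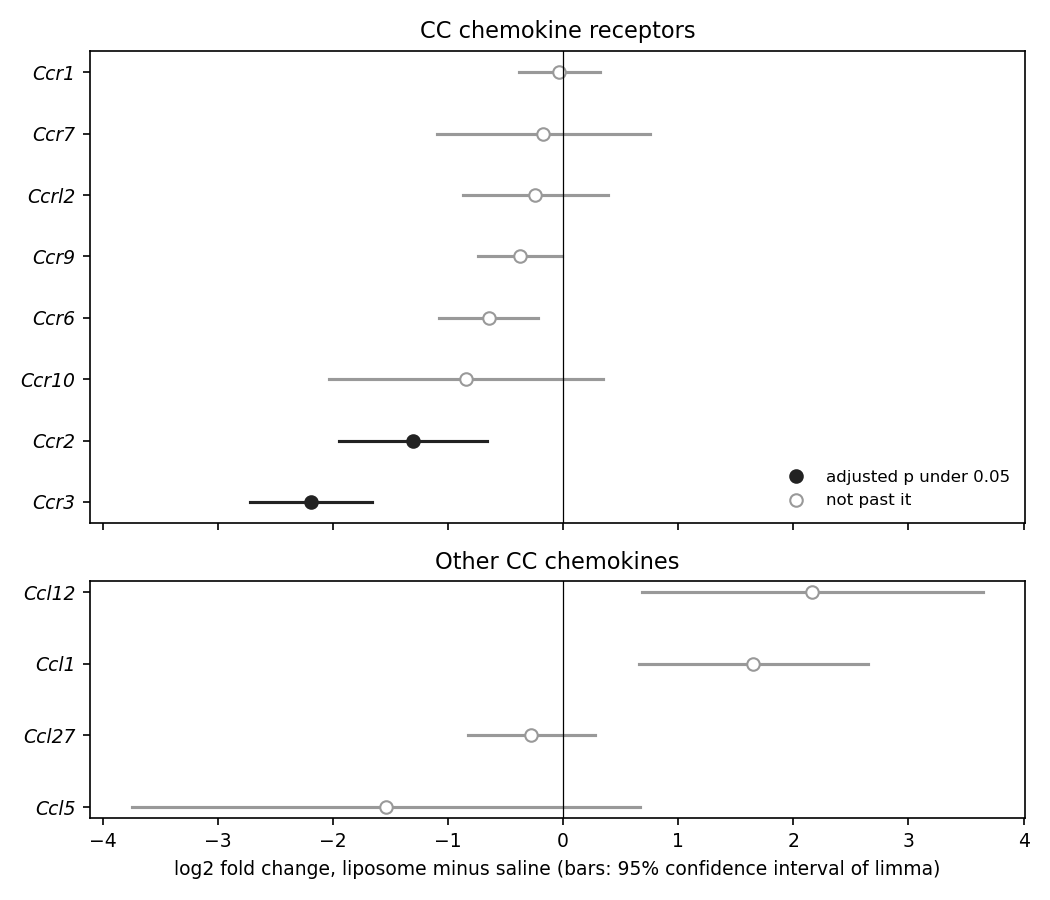
Log2 fold change, liposome minus saline, of 8 measured CC chemokine receptors (above) and the 4 other measured CC chemokines (below), with the 95% confidence interval of limma (n = 2 arrays per group). Filled points passed the adjusted p threshold: Ccr2 at -1.30 and Ccr3 at -2.19.

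Of the other CC chemokines 4 of 11 on the array were measured and none passed the test. Their median log2 fold change was 0.69, and it was 0.29 with normexp, -0.19 without the filter on dim probes and -0.28 among probes well above background on all 4 arrays. Beside Ccl12 and Ccl5 these were Ccl1 and Ccl27. Ccl1, a ligand of Ccr8, was at -3.43 and -2.54 on the liposome arrays, against -4.90 and -4.37 on the saline arrays, of which 1 was well above background. Its log2 fold change was 1.65 ± 0.37 SE with limma adjusted p = 0.0665, and 0.79 with normexp. Ccl27, a ligand of Ccr10, had a log2 fold change of -0.28 ± 0.20 SE with limma adjusted p = 0.395. Ccl11, Ccl19, Ccl20, Ccl21, Ccl25, Ccl26 and Ccl28 were not well above background on any array. The 17 measured genes of CC chemokine signalling, G proteins, kinases and regulators downstream of the receptors, had 0 past the threshold and a median log2 fold change of -0.02.

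Many CC chemokine genes are known to respond to NF-kB, and of 21 other genes with that background 1 rose and none fell, with 19 fitted lower and a median log2 fold change of -0.47. The one that rose was Il1a, the cytokine interleukin 1 alpha, at 0.47 and 0.65 on the liposome arrays, against -1.98 and -2.58 on the saline arrays. It was 7.15-fold higher (log2 fold change 2.84 ± 0.23 SE, limma adjusted p = 0.0151). Ccl9 and Il1a thus passed the test on the higher side, while the remaining 20 genes of that list and the other 8 chemokines did not pass.

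Ccl17, Ccl22 and Ccl24 are known to respond to IL-4 through STAT6. Of 19 other measured genes with that background 2 rose, 3 fell and 14 did not pass, with a median log2 fold change of -0.31. Tgm2, a crosslinking enzyme, was 4.68-fold higher on the liposome arrays (limma adjusted p = 0.0394) and Pparg, a lipid-sensing nuclear receptor, had a log2 fold change of 0.52 (limma adjusted p = 0.0494). Cdh1, the adhesion protein E-cadherin, was 9.57-fold lower on the liposome arrays (limma adjusted p = 0.00752) and Clec10a, a lectin of macrophages and dendritic cells, was 3.97-fold lower (limma adjusted p = 0.0193). Socs1, an inhibitor of cytokine signalling, had a log2 fold change of -0.85 (limma adjusted p = 0.0337). Pparg lost its call in 9 of 13 alternatives and Socs1 in 5. Pparg lies outside the naming rule and was added after its value was seen.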

How the data were processed

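Spleen cell RNA of 2 liposome and 2 saline arrays was analysed from deposited scanner files. The authors deposited linear spot intensities from Agilent Feature Extraction, version 10.7.3.1 in the submitters' processing notes. Per the file headers, the software took background and spatial trends out of the processed intensity of each array and did not scale arrays to each other. All arrays lay on 1 slide and 1 scan, so there was no such batch to test.

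Control spots and outlier flags were left out, spots of a probe averaged, and each array's 75th percentile subtracted from the log2 intensity. Kept were probes well above background on both liposome or both saline arrays; 278 without a value on all arrays were dropped, and the brightest probe stood for a gene. The 12858 resulting genes entered limma 3.58.1 under R 4.3.3 (lmFit, eBayes; 2.26 prior and 2 residual degrees of freedom), checked on simulated data, with Benjamini-Hochberg adjustment over all genes and a threshold of 0.05. No exact permutation test was run, since with 2 arrays per group its smallest p is 0.333. Alternatives were normexp (offset 50), quantile and median scaling, other filters and probe rules, a replicate block and leaving out each array. Promoter windows are from RefSeq (GRCr8), read with Biopython 1.88; probe positions are those of the files (rn4).

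The members, gene lists and tests were chosen with earlier results of these data known. The text names all 9 members, the measured receptors (1 is counted in its list but not reported here), up to 4 genes past the threshold with the largest change in each other pathway list, and the 5 profiles nearest to that of the member with the largest change; cell type marker genes were named for their role instead, and other exceptions are stated.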

Additional observations from a re-analysis of the deposited data

How the results depend on the processing

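The arrays' numbers are shared by both groups, but the labels do not say what they mark and there are only 2 pairs (deviations of same-numbered arrays correlated at 0.355 across 12858 genes, which are not independent replicates). With the number as a replicate block limma called 1816 genes and 2 members, Ccl9 and Ccl17 (log2 -1.13, adjusted p = 0.0316), and also Ccl1 and Ccl5 (adjusted p = 0.0133 and 0.0107); with 1 array of each number per group the block leaves every fold change as it was. The count of genes called, 1143 on all arrays, was 1720 with normexp, 0 of 21971 without the filter on dim probes (3005 at unadjusted p under 0.05) and 0 to 499 with an array left out (without liposome 1 or 2, 2177 and 2397 genes lay at unadjusted p under 0.05; without saline 1 or 2, 499 and 372 were called). The count of members called, 1 on all arrays, was 2 with normexp, with median scaling and among probes well above background on all arrays, 0 without the filter, and 0 to 2 with an array left out. Ccl9 kept its direction throughout, at 5.12 to 5.67 with an array left out, 4.53 with normexp and 5.40 without the filter, where it did not pass. Ccl17 passed in 5 of 13 alternatives, at -0.99 with normexp, -1.05 with median scaling and -1.13 among probes well above background on all arrays, and ran from -1.43 to -0.84 with an array left out. With an array left out, values that did not pass ran from -0.59 to 0.39 for Ccl2, -1.69 to 0.0737 for Ccl4, -0.13 to 0.0184 for Ccl6, -0.27 to 0.10 for Ccl24, -0.16 to 0.10 for Ccr1, -0.57 to 0.23 for Ccr7 and -0.55 to 0.0658 for Ccrl2. Median scaling turned Ccl6 to 0.0269 and Ccr1 to 0.0489. List medians with an array left out were -0.55 to -0.23 for receptors, -0.57 to -0.14 for NF-kB genes, and -0.0721 to 0.19 for signalling genes. The median of the other CC chemokines turned to -0.19 without the filter (11 genes) and to -0.28 with the stricter one (3 genes), as other genes enter it; all genes had a median of -0.17 without the filter. Taking the median of a probe's spots, chosen after seeing the data, changed no member's call and gave -0.24 for Ccl3. Causes of these shifts, other than the genes or arrays entering, were not tested. On the saline arrays Ccl9 and Ccl22 lay near background, which limits the precision of their levels there.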
